A study of Mus musculus with 12 samples.

Results

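The genes examined here build and gate the cilium. They comprise 40 genes in 5 groups: 10 subunits of intraflagellar transport complex B (IFT-B), 6 of intraflagellar transport complex A (IFT-A), 6 motor subunits, 14 genes of the transition zone and of nephronophthisis (NPHP), and 4 other ciliary genes. They were chosen by gene symbol from tables of 37991 Ensembl genes. The symbols of 39 genes were found as such, and Ift43 was found under its older symbol 1700019E19Rik. Lca5 occupies 2 rows, of which the row ENSMUSG00000090403 lies inside Lca5 and had 0 unique hits in every library, so only the row ENSMUSG00000032258 was tested.

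The values come from mRNA sequencing of whole retinas of male mice aged 8 weeks. There were 4 groups with 3 libraries each: F0 C57BL/6J, the common laboratory strain; F0 Cast/EiJ, a wild-derived inbred strain; F1 B6xCast, hybrids with a C57BL/6J father and a Cast/EiJ mother; and F1 CastxB6, hybrids with a Cast/EiJ father and a C57BL/6J mother. No group carried a transgene or received a treatment, and each library was made from a pool of 6 to 8 retinas, so that differences between single animals were averaged within a pool and p-values measure the spread between pools. A hybrid carries a copy of each strain's genome in the same nucleus, and reads that cover a sequence difference between the strains can be assigned to the C57BL/6J or the Cast/EiJ allele. Reads that could be assigned to 1 gene (and in F1 libraries to 1 allele) are called unique hits, and their totals ranged from 8158534 to 12363291 per library. Replicate 1 of F0 C57BL/6J, F0 Cast/EiJ and F1 B6xCast stood apart from the other libraries of its group in unique hits. The rod markers summed to between 914505 and 993040 count equivalents in every library, and no rod, cone, Mueller glia, bipolar, amacrine or ganglion cell marker was under 10 in any group.

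The light-sensitive outer segment of a rod or cone is a modified primary cilium, and the connecting cilium that joins it to the cell body corresponds to the transition zone of other cilia. Trains of IFT-B and IFT-A particles carry cargo along the ciliary microtubules, outward with kinesin motors and back with a cytoplasmic dynein. Proteins of the transition zone form the gate between the cell body and the cilium, and mutations in many of the genes described here cause retinal degeneration, nephronophthisis, Joubert syndrome or Meckel syndrome.

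RefSeq promoter windows on GRCm38.p6 were matched for 34 of the 40 genes, and the 250 bases before the start of each gene were searched on both strands for 2 motifs. The X-box, searched as GTNNCC followed after any 2 bases by GGNAAC, is the element bound by RFX factors, which are known regulators of ciliary genes. It was found in 348 of 32851 windows (1.06%) and in 4 of the 34 genes. The matches are shown with up to 20 bases on each side because they are the only ones of the set; the pattern is in capitals and in Ift57 and Tctn2 reads in the opposite orientation. The sequences are of the reference strain, are read 5′ to 3′, and lie on the plus strand.
Ift57, chr16:49699187-49699240: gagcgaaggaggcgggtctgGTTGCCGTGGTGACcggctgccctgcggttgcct
Mks1, chr11:87853171-87853214: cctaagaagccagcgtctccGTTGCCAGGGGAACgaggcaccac
Nphp4, chr4:152477892-152477944: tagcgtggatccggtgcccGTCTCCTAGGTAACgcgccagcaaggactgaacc
Tctn2, chr5:124598667-124598720: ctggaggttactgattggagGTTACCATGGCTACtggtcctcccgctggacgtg

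CRX is a homeodomain factor of photoreceptors, and its core motif TAATCC was found in 2054 of the 32851 windows (6.25%). Within the ciliary set 1 of 34 genes held it, Rpgrip1, in the opposite orientation at 28 to 23 bases before the start. The whole window of 250 bases is shown because Rpgrip1 is the member with the most allele-specific reads and a lower value on the Cast/EiJ side in both comparisons below.
Rpgrip1, chr14:52110653-52110902, plus strand: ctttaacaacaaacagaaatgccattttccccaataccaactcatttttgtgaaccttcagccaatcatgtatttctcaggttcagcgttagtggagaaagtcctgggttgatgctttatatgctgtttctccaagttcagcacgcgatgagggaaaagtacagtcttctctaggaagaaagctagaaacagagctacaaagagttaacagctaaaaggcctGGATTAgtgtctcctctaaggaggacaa
Neither motif was compared with binding data, and a match is only a match of letters in these windows.

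All 40 genes had reads in the retina, at levels that differed widely. On the scale of FPKM, which corrects for library size and transcript length, the median of the 40 gene means was 11. Arl3, a small GTPase that releases lipid-modified proteins into the cilium, had the highest level, 188 ± 18 FPKM in F0 C57BL/6J, 164 ± 21.1 in F0 Cast/EiJ, 187 ± 21.3 in F1 B6xCast and 193 ± 5.15 in F1 CastxB6 (SD, n = 3). Rpgrip1, which anchors RPGR in the connecting cilium, came next at 114 ± 11.5, 68.8 ± 5.32, 91.1 ± 6.79 and 85.9 ± 4.03 FPKM in the same order. The levels of Arl3 and Rpgrip1 did not overlap in any library, and the other 38 genes stayed between 0.919 and 41.6 FPKM.

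Among the trains, IFT-B genes had a median of 12.5 FPKM and IFT-A genes a median of 9.13 FPKM. Motor genes ranged from Kif17, an accessory kinesin, with 1.30 ± 0.118 FPKM in F0 C57BL/6J and 1.06 ± 0.122 in F1 B6xCast, to Kifap3, the adaptor of the heterotrimeric kinesin, with 28.4 FPKM in its highest library. The transition zone and NPHP genes had the lowest median of the 5 groups, 7.62 FPKM, with Invs at 2.08 FPKM in its lowest library. The spread between libraries was small beside the range between genes, as the plot of levels by gene shows.

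**Figure D1:**
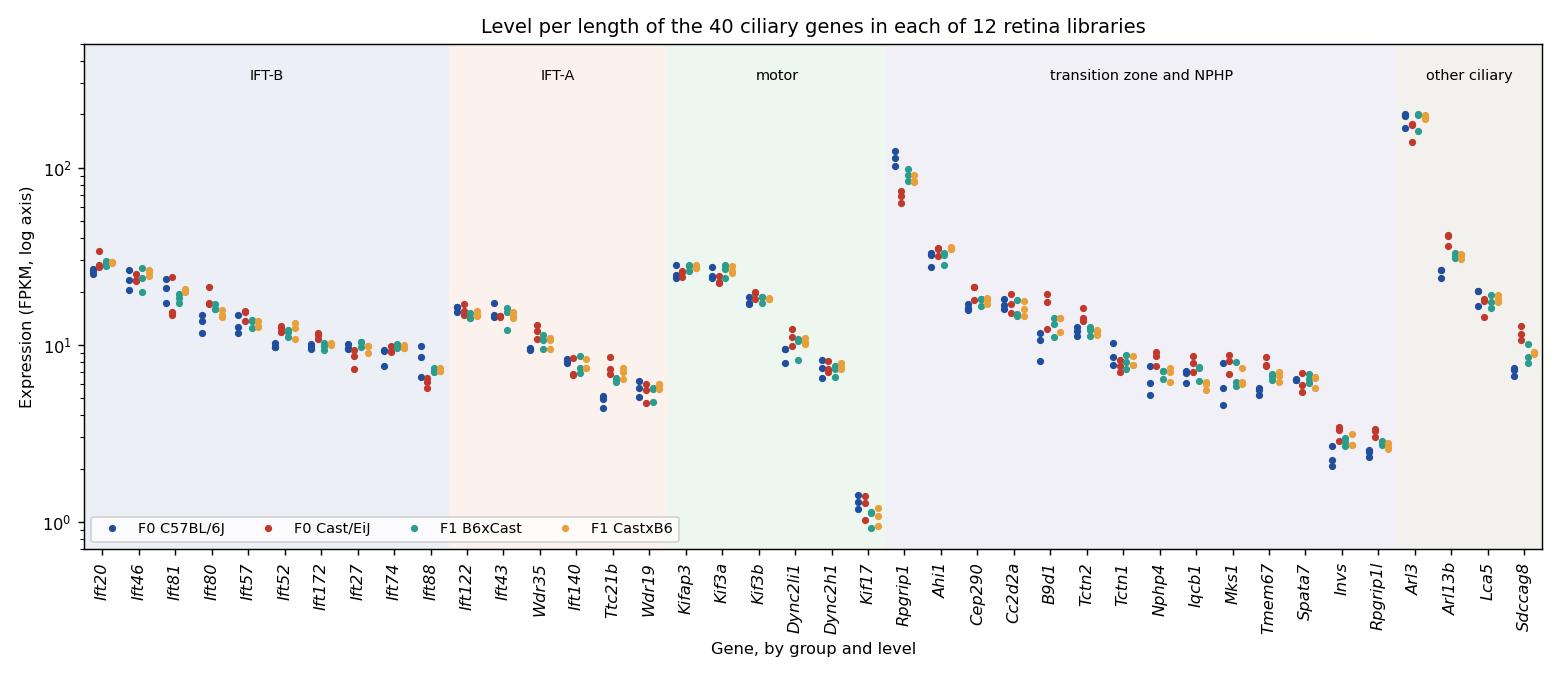
Expression of the 40 ciliary genes in FPKM (log axis), 1 point per library, coloured by group, with genes ordered by level within each group of genes. Arl3 and Rpgrip1 stand above all other genes, Kif17 lies lowest, and the Rpgrip1 points of F0 Cast/EiJ lie below those of F0 C57BL/6J.

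Differences were tested on count equivalents, which are estimated read counts per gene and allele that had been normalised across libraries. The value tested was log2(count equivalents + 1), differences are Cast/EiJ minus C57BL/6J, and a call is an adjusted p under 0.05 from limma with Benjamini-Hochberg adjustment over all genes tested. All 40 genes passed the filter for F0 and 39 passed it for alleles. Iqcb1, a calmodulin-binding NPHP protein, had 175 to 214 unique hits in every F0 library but 0 allele-specific hits in all 6 F1 libraries, so its alleles were not testable.

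Between the F0 strains 14 of 40 ciliary genes were called (35.0%), against 33.8% of the 14452 genes tested. Of these, 11 were higher and 3 lower in Cast/EiJ, where 17.2% and 16.6% of all genes were called in those directions. Between the F1 alleles 22 of 39 genes were called (56.4%), against 47.0% of 13414 genes, 14 with the Cast/EiJ allele higher and 8 with it lower, each direction holding 23.5% of all genes. The median log2 difference of the set was 0.13 in F0 (0.03 over all genes) and 0.01 between alleles (0.00 over all genes).

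In 17 of 40 genes the F0 libraries of the strains did not overlap (48.0% of all genes tested), and in 11 of 39 genes the alleles did not overlap over the 6 F1 libraries (25.5%). The comparisons shared 12 called genes, 11 of them with the same sign, and the exception was Cep290. Of the other calls, 2 were made in F0 alone (Ift172 and Wdr35) and 10 between alleles alone. The F0 count depended on the libraries used, falling to 8 without replicate 2 of F0 Cast/EiJ, to 9 without replicate 2 of F0 C57BL/6J and to 9 without its replicate 3, while the share of all genes fell to 26.2%, 24.2% and 26.6%. Without the 3 replicate 1 libraries that stood apart it was 15 (32.0% of all genes), and the allelic count was 21 (48.7%). A test of the allelic ratio within each library called 16 genes (41.9% of all genes) and lost Ift43, Ift52, Ift57, Kif3a, Rpgrip1l and Spata7.

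By group, the transition zone and NPHP genes, the largest of the 5 groups, had the most calls. They had 7 of 14 (50%) in F0 (6 higher, 1 lower) and 10 of 13 (76.9%) between alleles (8 higher, 2 lower). Of all genes tested 33.8% were called in F0 (17.2% higher, 16.6% lower) and 47.0% between alleles (23.5% in each direction). In F0 and between alleles, IFT-B genes had 3 of 10 and 4 of 10 calls and IFT-A genes 2 of 6 and 3 of 6. Motor genes had 1 of 6 and 2 of 6, and the other ciliary genes 1 of 4 and 3 of 4. No difference between these groups was tested. Whole retina mixes many cell types, and between libraries fewer cells of a type cannot be told apart from less RNA per cell. The alleles of an F1 library were read from the same pool of cells.

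Marker genes of other cell types differed between the same F0 libraries. The 8 cone markers summed to 14185 to 15797 count equivalents in F0 C57BL/6J and 10288 to 10994 in F0 Cast/EiJ, and the 4 ganglion cell markers to 10150 to 11079 and 6555 to 7213. The 5 bipolar markers summed to 14894 to 17125 and 13641 to 14196, and the 5 Mueller glia markers to 40480 to 49500 and 36334 to 42310, which overlapped, with 1 marker called higher and 2 lower. The sum of the 4 amacrine markers was higher in Cast/EiJ, 15460 to 16110 against 12470 to 13450, with 2 of 4 called. The sum of the 10 rod markers was also higher, 941670 to 993040 against 928860 to 940660, but only 2 of 10 were called and their median log2 difference was 0.019. The 6 markers of the retinal pigment epithelium summed to 382 to 450 and 195 to 301, with Rpe65 and Best1 under 10 in at least 1 group. The part of these differences in the ciliary results was not tested.

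**Figure D2:**
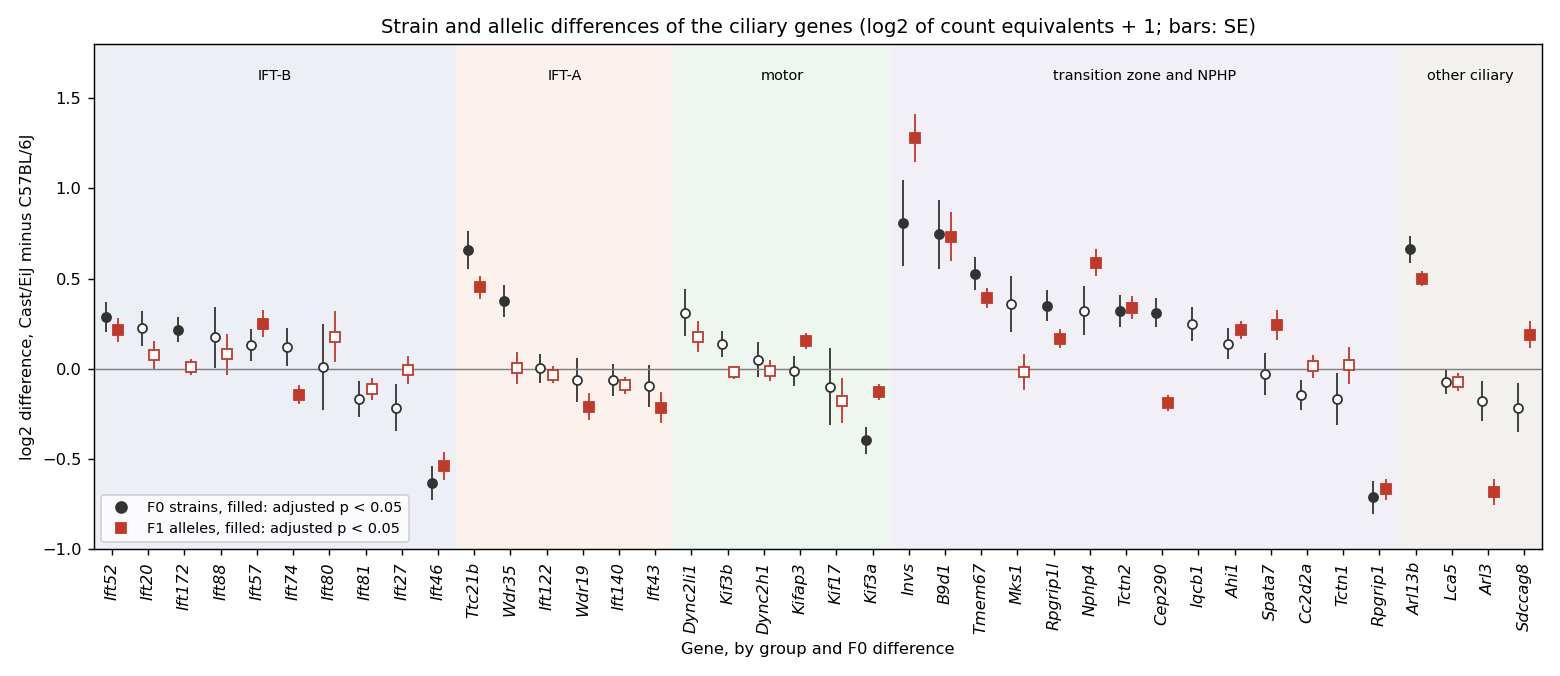
Strain difference (circles) and allelic difference (squares) of each ciliary gene on the log2 scale, Cast/EiJ minus C57BL/6J, with standard errors; filled symbols have an adjusted p under 0.05. The transition zone and NPHP genes hold most filled symbols above 0, while Ift46, Rpgrip1 and the Arl3 alleles lie lowest.

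Among the IFT-B genes Ift46 (ENSMUSG00000002031, chromosome 9, 44575991 to 44600797 on NCBI37), a core subunit that also binds cargo, was lower in Cast/EiJ. Its count equivalents were 494, 521 and 573 in F0 C57BL/6J and 338, 321 and 362 in F0 Cast/EiJ. In F1 B6xCast the C57BL/6J allele had 480, 566 and 592 and the Cast/EiJ allele 475, 347 and 335, and in F1 CastxB6 they had 572, 561 and 544 against 380, 378 and 379. Neither the strains nor the alleles overlapped, although the alleles of F1 B6xCast replicate 1 came close.

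The log2 difference of Ift46 was −0.63 ± 0.094 (SE, as for all log2 values) in F0 (limma, adjusted p = 0.001) and −0.54 ± 0.077 between alleles (limma, adjusted p = 2.3e-05). Unique hits gave −0.57 and −0.54 for the same comparisons with edgeR. The deposited log expression, a length-corrected estimate, gave 0.02 in F0 (limma, adjusted p = 0.89) and −0.11 between alleles (limma, adjusted p = 0.42). The measures thus differed for this gene, which in FPKM had 20.5, 26.4 and 23.3 in F0 C57BL/6J and 22.8, 25.2 and 23.1 in F0 Cast/EiJ.

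Of the other IFT-B genes, Ift52, a core subunit, was higher in Cast/EiJ in F0 (0.29 ± 0.083, limma, adjusted p = 0.026) and between alleles (0.21 ± 0.067, limma, adjusted p = 0.015). The F0 call of Ift52 was lost in 6 of 16 alternatives (TMM factors, DESeq2 and leaving out replicate 2 or 3 of either F0 strain). Its allelic call was lost in 4 of 23, the deposited log expression, DESeq2, the within-library ratio and leaving out replicate 3 of F1 B6xCast. Ift57, a peripheral subunit, was called between alleles alone (0.25 ± 0.076, limma, adjusted p = 0.012), with the Cast/EiJ allele higher in 5 of 6 libraries, and not with DESeq2, with the within-library ratio, or without replicate 3 of F1 B6xCast or replicate 2 of F1 CastxB6. Ift172, the largest peripheral subunit, was called in F0 at 0.22 ± 0.071 (limma, adjusted p = 0.043), and this call was lost under 10 of 16 alternatives, among them leaving out any F0 library but replicate 1 of F0 Cast/EiJ. Ift74 had a lower Cast/EiJ allele in 6 of 6 libraries without overlap (−0.14 ± 0.052, limma, adjusted p = 0.033), and the call was lost when any 1 of the 6 F1 libraries was left out.

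The 7 IFT-B genes without a call in F0 lay between −0.21 and 0.22, and the 6 without a call between alleles between −0.11 and 0.18. For Ift80, Ift81 and Ift88 the alleles were called by edgeR on unique hits but not by limma on count equivalents. Ift88, whose hypomorphic mouse mutant has retinal degeneration, had 148 to 231 unique hits for the C57BL/6J allele and 111 to 169 for the Cast/EiJ allele, an edgeR log2 difference of −0.48, while its count equivalents gave 0.08 ± 0.114 (limma, adjusted p = 0.59). The measures went in opposite directions for Ift88.

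In the IFT-A complex the clearest difference was in Ttc21b (ENSMUSG00000034848, chromosome 2, 66022384 to 66094674), which encodes IFT139 and is a cause of nephronophthisis. It had 440, 380 and 419 count equivalents in F0 C57BL/6J and 629, 739 and 594 in F0 Cast/EiJ. The F1 B6xCast libraries had 454, 409 and 473 for the C57BL/6J allele and 636, 629 and 574 for the Cast/EiJ allele, and the F1 CastxB6 libraries 429, 516 and 534 against 635, 672 and 694. All Cast/EiJ values exceeded all C57BL/6J values, in F0 and between alleles.

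Ttc21b was 1.58-fold higher in F0 Cast/EiJ (log2 0.66 ± 0.105, limma, adjusted p = 0.0016), and its Cast/EiJ allele was 1.37-fold higher (0.45 ± 0.065, limma, adjusted p = 2.2e-05). Both calls were kept under all alternatives run, 16 for F0 and 23 for the alleles. Wdr35, another IFT-A subunit, was called in F0 (0.38 ± 0.089, limma, adjusted p = 0.011), and its allelic value was 0.00 ± 0.088. Ift43 and Wdr19 were called between alleles, at −0.22 ± 0.086 (limma, adjusted p = 0.049) and −0.21 ± 0.075 (limma, adjusted p = 0.030), but Ift43 kept its call under only 9 of 23 alternatives. The Wdr19 call was lost without replicate 1 or 2 of F1 B6xCast or replicate 1 or 3 of F1 CastxB6, and the Ift43 call without any 1 of 10 libraries, the exceptions being replicate 2 of F0 C57BL/6J and replicate 1 of F1 B6xCast. Ift122 and Ift140 were called in neither comparison.

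Among the motors Kif3a (ENSMUSG00000018395, chromosome 11, 53380881 to 53417746), a motor subunit of the heterotrimeric kinesin that drives outward transport, was lower in Cast/EiJ. It had 1880, 1740 and 1950 count equivalents in F0 C57BL/6J and 1360, 1490 and 1380 in F0 Cast/EiJ. In F1 B6xCast the alleles had 1900, 1900 and 2170 (C57BL/6J) and 1750, 1860 and 1870 (Cast/EiJ), and in F1 CastxB6 2070, 2090 and 1870 against 1750, 1930 and 1800. The F0 strains did not overlap, the alleles did, and the Cast/EiJ allele was the lower in 6 of 6 libraries.

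Kif3a differed by −0.40 ± 0.073 in F0 (limma, adjusted p = 0.0034) and by −0.13 ± 0.045 between alleles (limma, adjusted p = 0.026). In the deposited log expression these values were −0.12 (limma, adjusted p = 0.30) and −0.10 (limma, adjusted p = 0.17). The allelic call of Kif3a was also lost with the within-library ratio and without replicate 3 of F1 B6xCast or replicate 1 of F1 CastxB6. Kifap3 had a higher Cast/EiJ allele (0.16 ± 0.046, limma, adjusted p = 0.010), higher in 5 of 6 libraries, and lost its call without replicate 3 of F1 CastxB6. Kif3b, Kif17 and the dynein subunits Dync2h1 and Dync2li1 were called in neither comparison.

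Rpgrip1 (ENSMUSG00000057132, chromosome 14, 52730578 to 52780982) had the largest decrease among the transition zone and NPHP genes. The F0 C57BL/6J libraries had 11500, 10300 and 9240 count equivalents and the F0 Cast/EiJ libraries 6470, 6640 and 5790. In F1 B6xCast the C57BL/6J allele had 11100, 9120 and 9610 and the Cast/EiJ allele 6450, 5690 and 6340, and in F1 CastxB6 the values were 8940, 9770 and 9140 against 5670, 6340 and 5780. Every Cast/EiJ value lay below every C57BL/6J value in both comparisons.

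The C57BL/6J value of Rpgrip1 was 1.64-fold that of Cast/EiJ in F0 (log2 −0.71 ± 0.094, limma, adjusted p = 0.00054) and 1.59-fold between alleles (−0.67 ± 0.056, limma, adjusted p = 4.1e-08). Both calls held under all alternatives run, 16 and 23. The allelic value rested on the deepest coverage in the set, 27443 unique hits for the C57BL/6J and 17374 for the Cast/EiJ allele over the 6 libraries. The gene is the one whose 250-base window with the CRX core is printed above, and no sequence of the Cast/EiJ strain was examined.

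Invs (ENSMUSG00000028344, chromosome 4, 48292632 to 48444826), which encodes inversin of the proximal ciliary compartment, had the largest allelic difference of the set in count equivalents. It had 202, 110 and 143 count equivalents in F0 C57BL/6J and 310, 283 and 196 in F0 Cast/EiJ. Between alleles it had 127, 96.1 and 141 (C57BL/6J) against 283, 289 and 286 (Cast/EiJ) in F1 B6xCast, and 117, 129 and 134 against 263, 333 and 355 in F1 CastxB6. The F0 strains overlapped in 1 library each, whereas the alleles were far apart in all 6.

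The Cast/EiJ allele of Invs was 2.42-fold the C57BL/6J allele (log2 1.28 ± 0.134, limma, adjusted p = 6e-07). The F0 difference was 0.81 ± 0.239 (limma, adjusted p = 0.029), a call that was lost under 6 of 16 alternatives, among them the deposited log expression (0.46, limma, adjusted p = 0.059) and leaving out replicate 2 or 3 of F0 C57BL/6J or replicate 1 or 2 of F0 Cast/EiJ. The allelic value was smaller in the other measures, 0.77 in unique hits (edgeR) and 0.68 in the deposited log expression, where Sdccag8, Arl3 and B9d1 had larger ones. Over the 6 libraries the alleles of Invs rested on 646 (C57BL/6J) and 1083 (Cast/EiJ) unique hits.

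B9d1 (ENSMUSG00000001039, chromosome 11, 61318646 to 61326433), a B9-domain protein of the Meckel syndrome complex, was higher in Cast/EiJ. Its count equivalents were 138, 141 and 106 in F0 C57BL/6J and 163, 253 and 238 in F0 Cast/EiJ. The alleles had 102, 135 and 150 against 191, 203 and 222 in F1 B6xCast, and 153, 150 and 89.7 against 218, 216 and 225 in F1 CastxB6. No Cast/EiJ value fell among the C57BL/6J values, though replicate 1 of F0 Cast/EiJ came close.

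The difference of B9d1 was 0.75 ± 0.191 in F0 (limma, adjusted p = 0.016) and 0.73 ± 0.135 between alleles (limma, adjusted p = 0.00027). The F0 call was lost without any filter on low values, without replicate 3 of F0 C57BL/6J, and without replicate 2 or 3 of F0 Cast/EiJ, the highest adjusted p being 0.14. The allelic call held in 23 of 23 alternatives.

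Tmem67 (ENSMUSG00000049488, chromosome 4, 11966502 to 12017167), which encodes meckelin, a membrane receptor of the same complex, had 372, 399 and 360 count equivalents in F0 C57BL/6J and 531, 589 and 512 in F0 Cast/EiJ. Its alleles had 370, 412 and 352 against 508, 495 and 495 in F1 B6xCast and 399, 372 and 377 against 496, 550 and 451 in F1 CastxB6. Cast/EiJ was above C57BL/6J in every library and on every allele. The differences were 0.53 ± 0.091 in F0 (limma, adjusted p = 0.0024) and 0.39 ± 0.056 between alleles (limma, adjusted p = 2.2e-05).

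Nphp4 (ENSMUSG00000039577, chromosome 4, 151850815 to 151937292), a scaffold of the NPHP module and the gene with the X-box pattern farthest from its start, had 444, 647 and 469 count equivalents in F0 C57BL/6J and 647, 613 and 665 in F0 Cast/EiJ. In F1 B6xCast the alleles had 468, 446 and 426 (C57BL/6J) and 732, 686 and 633 (Cast/EiJ), and in F1 CastxB6 488, 415 and 437 against 712, 625 and 646. Replicate 2 of F0 C57BL/6J lay among the Cast/EiJ values, while the alleles did not overlap. The Cast/EiJ allele was 1.5-fold higher (0.59 ± 0.074, limma, adjusted p = 4.7e-06), and the F0 value of 0.32 ± 0.136 did not pass (limma, adjusted p = 0.098).

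Cep290 (ENSMUSG00000019971, chromosome 10, 99950923 to 100036289) encodes a large protein that links the transition zone microtubules to the membrane and is a common cause of Leber congenital amaurosis. It was named after its values were seen, because its 2 differences had opposite signs. It had 2490, 2450 and 2630 count equivalents in F0 C57BL/6J and 3290, 3310 and 2810 in F0 Cast/EiJ. In F1 B6xCast the C57BL/6J allele had 2880, 2990 and 2650 and the Cast/EiJ allele 2650, 2430 and 2350, and in F1 CastxB6 they had 2700, 2910 and 2980 against 2460, 2530 and 2580. The F0 Cast/EiJ libraries were all above the F0 C57BL/6J ones, yet within each F1 library the Cast/EiJ allele was the lower.

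The Cep290 difference was 0.31 ± 0.080 in F0 (limma, adjusted p = 0.016) and −0.19 ± 0.045 between alleles (limma, adjusted p = 0.0025). Unique hits gave 0.30 and −0.20 with edgeR. The F0 call was lost in 5 of 16 alternatives, with limma adjusted p up to 0.097: no filter on low values, leaving out replicate 2 of F0 C57BL/6J, leaving out replicate 1 or replicate 2 of F0 Cast/EiJ, and leaving out the 3 replicate 1 libraries that stood apart. The allelic call was lost in 0 of 23.

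Of the remaining transition zone and NPHP genes, Tctn2 and Rpgrip1l were higher in Cast/EiJ in both comparisons. Tctn2, a tectonic of the Meckel complex with an X-box pattern in its window, differed by 0.32 ± 0.089 in F0 (limma, adjusted p = 0.023) and by 0.34 ± 0.065 between alleles without overlap. Rpgrip1l, a paralogue of Rpgrip1, differed by 0.35 ± 0.086 in F0 (limma, adjusted p = 0.014) and by 0.17 ± 0.053 between alleles (limma, adjusted p = 0.015). The F0 call of Tctn2 was lost in 7 of 16 alternatives, with TMM factors, with no filter, in the deposited log expression, and without replicate 2 or 3 of F0 C57BL/6J or replicate 1 or 2 of F0 Cast/EiJ. Rpgrip1l lost its F0 call without replicate 2 of F0 C57BL/6J, and its allelic call with DESeq2, with the within-library ratio, and without replicate 2 of F1 B6xCast or replicate 2 or 3 of F1 CastxB6. Ahi1, the jouberin gene, and Spata7, a photoreceptor connecting cilium gene, were called between alleles alone, at 0.22 ± 0.051 and 0.24 ± 0.084, and the call of Spata7 was lost with edgeR and DESeq2 on unique hits, with the within-library ratio, and without replicate 3 of F1 B6xCast or replicate 1 of F1 CastxB6. Cc2d2a, Mks1 and Tctn1 had allelic values between −0.02 and 0.02 and no call. Mks1, which carries the fourth X-box pattern, had a F0 value of 0.36 ± 0.154 (limma, adjusted p = 0.10).

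Among the other ciliary genes Arl13b (ENSMUSG00000022911, chromosome 16, 62793511 to 62846866), a ciliary membrane GTPase and activator of Arl3, was higher in Cast/EiJ. It had 957, 862 and 975 count equivalents in F0 C57BL/6J and 1420, 1470 and 1530 in F0 Cast/EiJ. The alleles had 961, 1080 and 965 against 1360, 1440 and 1400 in F1 B6xCast and 997, 995 and 935 against 1390, 1380 and 1410 in F1 CastxB6. The groups were wide apart in both comparisons.

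Arl13b was 1.58-fold higher in F0 Cast/EiJ (log2 0.66 ± 0.075, limma, adjusted p = 0.00021), the smallest adjusted p of the set in F0. Its Cast/EiJ allele was 1.41-fold higher (0.50 ± 0.040, limma, adjusted p = 2.6e-08). Both calls were kept under all alternatives run.

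Arl3 (ENSMUSG00000025035, chromosome 19, 46605599 to 46647575) went the other way between alleles. Its count equivalents were 2280, 2740 and 2620 in F0 C57BL/6J and 1910, 2410 and 2460 in F0 Cast/EiJ. In F1 B6xCast the C57BL/6J allele had 2720, 3250 and 3240 and the Cast/EiJ allele 1600, 2080 and 2010, and in F1 CastxB6 they had 3320, 3060 and 3080 against 1960, 1950 and 2050. The F0 strains overlapped, but the alleles were far apart in all 6 libraries.

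The C57BL/6J allele of Arl3 was 1.6-fold the Cast/EiJ allele (log2 −0.68 ± 0.070, limma, adjusted p = 4.7e-07), and the F0 value of −0.18 ± 0.111 did not pass (limma, adjusted p = 0.25). In unique hits the allelic value was −0.51 (edgeR). Lca5, the lebercilin gene, was called in neither comparison. Sdccag8, a centrosomal ciliopathy gene, was called between alleles at 0.19 ± 0.074 (limma, adjusted p = 0.045), but the deposited log expression gave 1.51 and unique hits gave −0.12 (edgeR) and −0.11 (DESeq2), so its direction depended on the measure. Its call was also lost without any F1 library but replicate 1 of F1 CastxB6, without replicate 2 of F0 C57BL/6J and without replicate 3 of F0 Cast/EiJ.

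**Figure D3:**
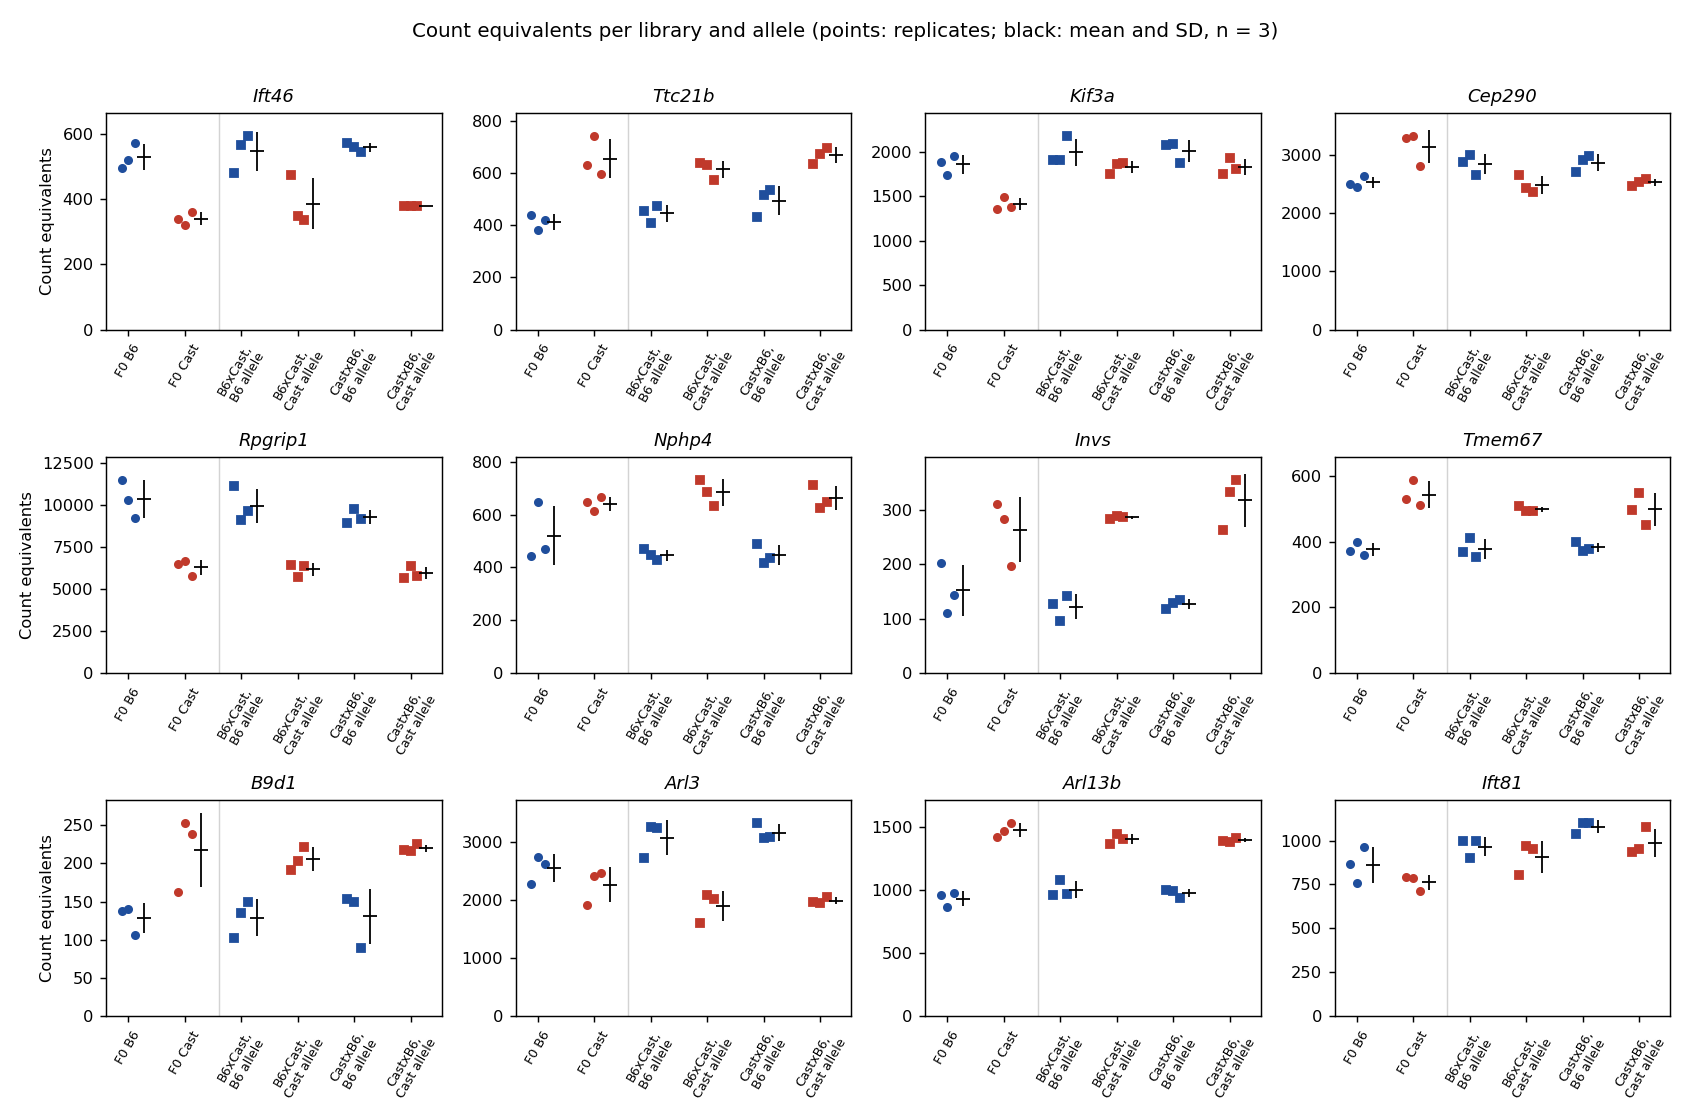
Count equivalents of 12 ciliary genes per library (linear axis from 0), with F0 libraries on the left of the grey line and the alleles of the F1 libraries on the right, blue for C57BL/6J and red for Cast/EiJ; black marks are the mean and SD of 3 libraries. For Ttc21b, Rpgrip1, Tmem67 and Arl13b the F1 alleles repeat the order of the F0 strains, for Cep290 the order is turned, and for Arl3 the alleles are apart where the strains overlap.

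The reads were not strand-specific, so reads of genes that overlap on opposite strands cannot be told apart where they share sequence. In the deposited annotation Rpgrip1 shares 889 bases with Supt16h, Nphp4 1166 with Kcnab2, Invs 1097 with Tex10, Cep290 1382 with 4930430F08Rik, Tmem67 582 with C430048L16Rik, and Arl13b 9671 with Stx19. These lengths are of whole gene spans, introns included, and the transcript sequence shared was not measured. The mean F0 count equivalents of these neighbours ranged from 30.5 for Stx19 to 3910 for Kcnab2. Ift46, Ttc21b, Kif3a, B9d1 and Arl3 overlapped no gene with a mean of 10 or more in F0.

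In the study's terms, a cis effect is a difference between alleles that also appears between the strains, and a trans effect is one between the strains that the alleles do not show. Here a gene was classed as cis where the strain and allelic differences were called with the same sign and the value of the first minus the second was not, as cis and trans where the allelic difference and that value were called, and as trans where the strain difference and that value were called but the alleles were not. The F0 difference minus the allelic difference was called for 3 of 39 genes (7.69%), against 14.0% of all genes. These were Cep290 (0.50 ± 0.083, limma, adjusted p = 6e-04), Arl3 (0.51 ± 0.128, limma, adjusted p = 0.014) and Kif3a (−0.27 ± 0.082, limma, adjusted p = 0.039), 2 positive (5.64% of all genes) and 1 negative (8.31%). For Cep290 and Arl3 the F0 difference lay above the allelic one, and for Kif3a below it.

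The Cep290 call was kept under all 22 alternatives and the Arl3 call under 20, the exceptions being edgeR (adjusted p = 0.12) and DESeq2 on unique hits. For this comparison the count fits had no term for the library. They also set F0 hits of a whole gene beside F1 hits assigned to an allele. The Kif3a call was lost under 10 of 22, and in the deposited log expression its value was −0.02 (limma, adjusted p = 0.93). It was also lost without replicate 1 or 3 of either F0 strain, replicate 2 of F1 B6xCast, or replicate 2 or 3 of F1 CastxB6.

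With all calls taken from 1 model of the F0 strains and the F1 alleles, 11 of the 39 genes were classed as cis, 3 as cis and trans (the genes just named), 0 as trans, 15 had no call and 10 could not be classed. Over all 13414 genes these classes held 21.0%, 8.92%, 4.79%, 40.7% and 24.7%. The cis genes were Ift46, Ift52, Ttc21b, Rpgrip1, Rpgrip1l, Nphp4, Invs, Tmem67, Tctn2, B9d1 and Arl13b. Among them Ift52 and Rpgrip1l rested on allelic calls that the within-library ratio did not make. Nphp4 entered because its F0 difference passed in that model (limma, adjusted p = 0.032), though not in the comparison of the F0 libraries alone.

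**Figure D4:**
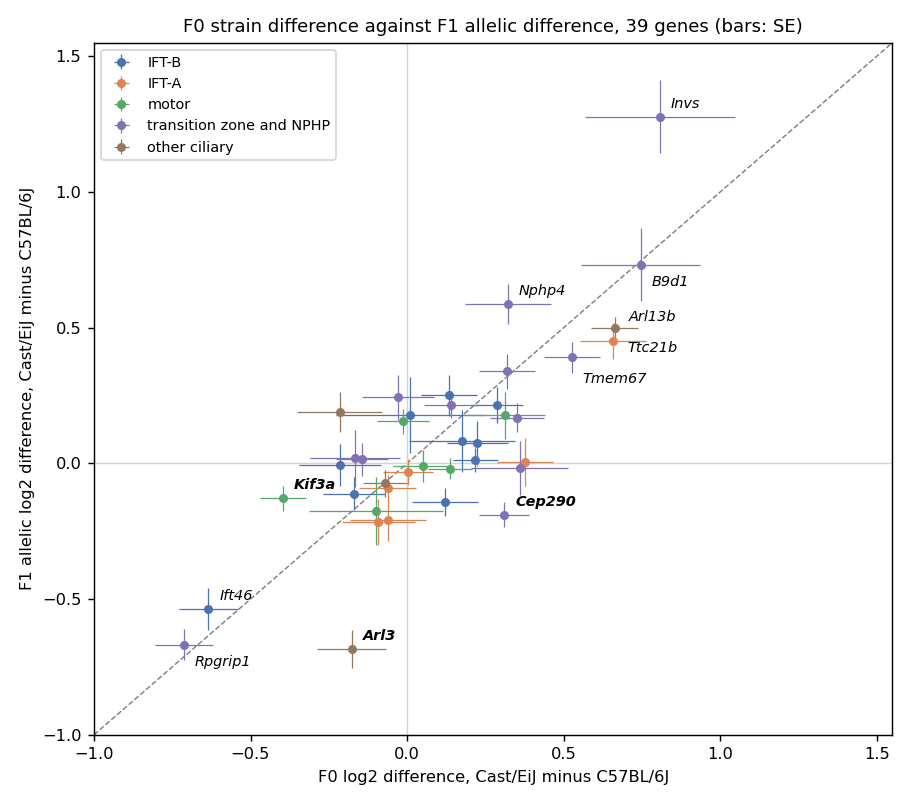
F0 strain difference (x axis) against F1 allelic difference (y axis) of 39 ciliary genes on the log2 scale, Cast/EiJ minus C57BL/6J, with standard errors; the dashed line marks equal differences and names in bold mark genes with a called difference between the axes. Ift46, Rpgrip1, B9d1, Tmem67, Ttc21b and Arl13b lie near the line, and Cep290, Arl3 and Kif3a lie off it, as do Invs, Sdccag8, Mks1 and Wdr35, whose difference between the axes was not called.

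A parent-of-origin effect would set the maternal allele apart from the paternal one in both reciprocal crosses. None of the 39 genes was called (0 of 39, against 0.492% of all genes), with values from −0.18 to 0.16, and 2 had an unadjusted p under 0.05 with limma, Ift140 (−0.11) and Ahi1 (−0.12). EdgeR and DESeq2 on unique hits also called 0. The total level did not separate F1 CastxB6 from F1 B6xCast for any gene either (0 of 40 called by limma, against 0.0816% of all genes by limma, 0.0272% higher and 0.0544% lower), with values from −0.18 to 0.17 and 1 unadjusted p under 0.05, that of Ahi1. EdgeR and DESeq2, which could use allele-specific hits alone for this comparison and had none for Iqcb1, called 0 of the other 39. Taken within each cross, the allelic difference of Rpgrip1 was −0.69 in F1 B6xCast and −0.65 in F1 CastxB6, and that of Invs was 1.25 and 1.31.

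The F1 total, the mean of the 2 allele values of a library, was compared with the mean of the F0 strains, and 2 of 40 genes were called (5%), both higher in F1, against 12.2% of all genes (7.19% higher and 5.03% lower). Ift81 (ENSMUSG00000029469, chromosome 5, 123000213 to 123064527), which binds tubulin together with Ift74, had 864, 758 and 962 count equivalents in F0 C57BL/6J and 792, 785 and 714 in F0 Cast/EiJ. Its group means were 937 ± 37 in F1 B6xCast and 1034 ± 52.3 in F1 CastxB6. The value was 0.28 ± 0.058 (limma, adjusted p = 0.0074), and for Kif3a 0.24 ± 0.044 (limma, adjusted p = 0.0031), with an F1 CastxB6 mean of 1918 ± 87.8 count equivalents.

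Neither gene was called in the deposited log expression, where Ift81 was at 0.02 (limma, adjusted p = 0.95) and Kif3a at 0.12 (limma, adjusted p = 0.23). F0 and F1 libraries also differed in the number of lanes and in the transcriptome used for mapping, which cannot be told apart from the cross.

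A list of other ciliary genes, which are not members, was set beside them. It held 70 symbols (64 found), and its 60 tested genes gave 19 calls in F0 (9 higher, 10 lower). This was 31.7%, against 33.8% of all genes. Between alleles 29 of 58 were called (50%), against 47.0% of all genes. The allelic calls of that list were 8 higher and 21 lower in Cast/EiJ with a median of −0.06, against 14 higher and 8 lower for the members. Each direction held 23.5% of all genes, and no difference between the list and the members was tested. Among its called genes the largest allelic values were those of Poc1b, a centriolar gene (1.17 ± 0.071), Bbs5, a BBSome subunit (−1.04 ± 0.204), Tmem17, a transition zone membrane protein (−1.03 ± 0.10), and Tctex1d2, a dynein light chain (−1.01 ± 0.145). Poc1b, Tmem17 and Tctex1d2 did not overlap between alleles, while Bbs5 did, with the Cast/EiJ allele higher in 3 of 6 libraries. The Bbs5 value is thus a mean over libraries that did not share a direction. Of the 58 genes, 1 was called for maternal against paternal allele, with the maternal allele lower (limma, adjusted p = 0.0042). This was 1.72%, against 0.492% of all genes (0.313% lower).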

How the data were processed

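The members and gene lists were chosen with earlier results of these data known. Per the labels and the study's methods, poly(A) RNA was sequenced in pairs without strand (F0 libraries on 1 lane, F1 on 2), trimmed (Trim Galore 0.2.6) and aligned (Bowtie 0.12.9) to Ensembl 67 transcripts of NCBI37 carrying each strain's variants, for F1 to both strains' transcripts at once, before quantification with MMSEQ. The deposited signal values are count equivalents, MMSEQ estimates that the authors normalized (column totals 12648792 to 13843914). The deposited natural log expression was exponentiated and is given as FPKM. Unique hits are deposited read counts without normalization. Posterior SDs and the authors' MMDIFF columns (54 in all) were not used.

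Autosomal genes were fitted with limma 3.58.1 (trend) on log2(count equivalents + 1). F0 needed at least 10 count equivalents in 3 of 6 libraries (14452 genes). Contrasts of alleles, of F0 minus alleles and of maternal minus paternal came from 1 model of all 12 libraries with the F1 library as a random block (consensus correlation 0.135), over 13414 genes averaging 10 or more allele-assigned unique hits per F1 library. F1 totals needed 10 count equivalents in 3 of 12 libraries (14710 genes). Count tests served only as alternatives, edgeR 4.0.16 and DESeq2 1.42.0 on unique hits, beside other pseudocounts (0.1, 5), filters and scaling, a replicate block and left-out libraries. Limma called 74.5% (F0) and 95% (alleles) of 200 simulated 2-fold changes. The simulation changed few genes, whereas 33.8% (F0) and 47.0% (alleles) of genes were called in the data. The highest F0 log2 difference of a member was 0.81, under 2-fold. These shares therefore do not give the power for the differences of the members. Members called in F0 or between alleles with an absolute log2 of at least 0.5 are given in every library, and at most 3 others per group were to be named by size. Cep290, Kif3a, Ift81 and further genes behind small counts were named after their values were seen.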

Additional observations from a re-analysis of the deposited data

Results flagged for a closer look

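In 3 genes the effect of strain differed between the F0 libraries and the F1 alleles by a test of the difference itself. The F0 difference minus the allelic difference was 0.50 for Cep290, 0.51 for Arl3 and −0.27 for Kif3a on the log2 scale (limma, adjusted p = 6e-04, 0.014 and 0.039). Only the Cep290 value kept its call under all 22 alternatives, while Arl3 lost it with edgeR (0.31) and DESeq2 (0.37) on unique hits and Kif3a lost it under 10 of 22, with −0.02 in the deposited log expression. In Cep290 every F0 Cast/EiJ library lay above the F0 C57BL/6J libraries while the Cast/EiJ allele was the lower in 6 of 6 F1 libraries. In Arl3 the Cast/EiJ allele was the lower in 6 of 6 libraries and the F0 strains overlapped. In Kif3a both differences had the same sign and the F0 difference was the larger. The F0 and F1 libraries were mapped to different transcriptomes, and the part of that in these differences was not tested.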

How the results depend on the processing

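The number of ciliary genes called between the F0 strains was 14 (33.8% of all genes), and it was 9 with no filter on low values (9.04%) and 8 to 14 when libraries were left out in turn (24.2% to 31.6%). Between the alleles it was 22 (47.0%), 16 with the within-library ratio (41.9%) and 15 to 21 with libraries left out (40.9% to 47.5%). The F0 minus allelic difference gave 3 calls, 1 with DESeq2 on unique hits (12.5% of all genes) and 2 to 4 with libraries left out. Maternal against paternal alleles and the reciprocal totals gave 0 calls under each of 23 and 22 alternatives. The F1 total against F0 gave 2 calls, 8 with TMM factors (24.4% of all genes, against 12.2%; the factors moved the median of all genes to 0.11), 0 with the deposited log expression (8.75%), and 2 to 3 with libraries left out. Without replicate 1 of F0 C57BL/6J, F0 Cast/EiJ and F1 B6xCast together, an alternative chosen after seeing the data, it gave 4 (14.5%). Ift46 changed sign in F0 with the deposited log expression (0.024), and Sdccag8 between alleles with edgeR (−0.12) and DESeq2 (−0.11) on unique hits. The cause was not tested.

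Same-numbered libraries of different groups correlated at −0.11 to 0.30 in their deviations from the group means. Of these 18 pairs 6 were over 0.1, against 2 of 36 other pairs. The 6 pairs joined replicate 1 (0.28 to 0.30) or replicate 3 (0.12 to 0.15) of F0 C57BL/6J, F0 Cast/EiJ and F1 B6xCast. The main tests did not take the numbers as pairs, and what these libraries share was not tested. With the replicate number as a block the calls numbered 17 in F0 (44.1% of all genes), 23 between alleles (47.7%), 4 for their difference (15.1%), 0 for parent of origin, 0 for the reciprocal totals and 3 for F1 against F0 (13.7%).

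Some genes with large differences rested on few allele-specific reads, and how far depth limited each gene was not tested. B9d1 rested on 377 and 596 allele-specific unique hits and Invs on 646 and 1083. The F1 total against F0 was not run on unique hits, which in F1 hold allele-specific reads alone.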
